A study of Mus musculus with 8 samples.

Results

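The Dlx homeobox genes were described through every probe set that the platform annotation assigned to exactly 1 of 7 gene symbols: Dlx1, its antisense transcript Dlx1as, Dlx2, Dlx3, Dlx4, Dlx5 and Dlx6. These were 9 probe sets, and the probe set with the highest mean intensity stood for each gene. The 7 genes were among 18193 on the array. All 7 were among the 13545 tested, which had an intensity above 19.4, the 40th percentile of all values, on at least 2 of the 8 arrays. Dlx4 lay below that level on 3 arrays, Dlx6 on 2, and the other 5 genes on none.

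RNA was hybridised to 8 mouse Affymetrix arrays, 4 from FAK mutants and 4 from controls that the series title calls wild type. FAK (focal adhesion kinase) signals where integrins hold cells to the matrix. The first pair of arrays, 1 mutant and 1 control, held cranial neural crest cells sorted for p75 from head and thorax of E11.5 embryos, with 3 embryos pooled for each array. The other 3 pairs came from origins that the labels name OFT, LM and UM without spelling them out. The series title gives E11.5 for them too, and how many embryos went into each is not stated in the labels. The labels state neither the mutant allele, nor a promoter or Cre driver, nor the strain. The FAK gene itself was not analysed here, so the genotypes rest on the labels. With 1 array per origin and genotype, differences between origins and between genotypes were tested against the same estimate of spread for each gene. It came from how the mutant minus control difference varied over the 4 pairs, moderated over all genes tested. Fewer cells of a type and less RNA per cell cannot be told apart in such bulk RNA.

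Dlx genes encode homeodomain transcription factors related to Drosophila Distal-less, and most lie in neighbouring pairs. In the pharyngeal arches, Dlx1 and Dlx2 are known to be expressed along much of the upper-to-lower axis, Dlx5 and Dlx6 in the lower part, and Dlx3 and Dlx4 nearest the lower tip. Endothelin 1, received by neural crest cells, raises Dlx5 and Dlx6 there. These in turn are needed for lower jaw genes such as Hand2. In the ventral forebrain, Dlx1 and Dlx2 act in the formation of GABAergic interneurons.

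The genes lie in 3 groups in the RefSeq annotation of GRCm38.p6. Dlx1 and Dlx2 are neighbours on chromosome 2, where Dlx1as overlaps Dlx1. Dlx5 and Dlx6 are neighbours on chromosome 6, where the noncoding RNA genes Dlx6os1 and Dlx6os2 overlap Dlx6. Dlx3 and Dlx4 are neighbours on chromosome 11. Which strand each probe set reads was not tested, so values of overlapping genes (Dlx1 and Dlx1as; Dlx6 and its noncoding neighbours) are uncertain in how they divide the signal. Start-site windows of RefSeq (GRCm38.p6) were at hand for 2 of the 7 genes, the neighbours Dlx1 and Dlx2. Both listed windows of Dlx6os1, one per start, are shown because, of all genes tested, its intensities lay closest to those of Dlx5. Each line gives the 250 bases before a start, 5′ to 3′ on the gene's strand. Capitals mark matches, on either strand, to TAATTA (a core bound by homeodomains), CACGTG (the E-box), CCAAT (read as ATTGG on the other strand) or TATAAA.
Dlx1: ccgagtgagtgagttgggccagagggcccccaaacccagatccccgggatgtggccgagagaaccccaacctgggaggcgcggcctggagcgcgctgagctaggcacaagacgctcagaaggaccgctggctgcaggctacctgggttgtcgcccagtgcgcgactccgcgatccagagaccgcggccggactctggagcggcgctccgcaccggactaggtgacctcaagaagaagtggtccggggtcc
Dlx2: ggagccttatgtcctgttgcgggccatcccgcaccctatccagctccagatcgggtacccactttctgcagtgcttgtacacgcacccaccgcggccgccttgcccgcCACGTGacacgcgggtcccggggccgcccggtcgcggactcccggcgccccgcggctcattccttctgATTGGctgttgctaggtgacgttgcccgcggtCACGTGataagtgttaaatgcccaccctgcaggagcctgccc
Dlx6os1, first window: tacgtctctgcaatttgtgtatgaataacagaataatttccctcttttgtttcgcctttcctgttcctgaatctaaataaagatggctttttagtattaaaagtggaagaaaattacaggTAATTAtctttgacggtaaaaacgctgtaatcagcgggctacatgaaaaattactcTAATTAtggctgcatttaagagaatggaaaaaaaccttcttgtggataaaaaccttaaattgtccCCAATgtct
Dlx6os1, second window: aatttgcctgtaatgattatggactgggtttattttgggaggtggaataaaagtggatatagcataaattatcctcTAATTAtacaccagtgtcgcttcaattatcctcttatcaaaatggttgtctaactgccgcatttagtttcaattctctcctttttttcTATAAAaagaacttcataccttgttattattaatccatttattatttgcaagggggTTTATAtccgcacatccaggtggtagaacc
The Dlx1 window lies at chr2:71529195-71529444 on the plus strand, is 68% G or C, and holds none of these letters. The Dlx2 window, chr2:71546755-71547004 on the minus strand, is 66.4% G or C and holds CACGTG at 2 places and CCAAT, as ATTGG, at 1. The first Dlx6os1 window, chr6:6869534-6869783 on the minus strand, is 33.2% G or C and holds TAATTA at 2 places and CCAAT at 1. The second, chr6:6861684-6861933 on the minus strand, is 34% G or C and holds TAATTA at 1 place and TATAAA at 2. Among 32851 windows of this length, 4.84% hold TAATTA, 6.02% CACGTG, 33.9% CCAAT and 12.4% TATAAA, and the median G or C content is 52.4%. A match describes letters and not a bound site.

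Intensities of different probe sets have no common scale, so levels were compared between arrays and never between genes. The trimmed mean intensity was 150.0 on all 8 arrays. The p75-sorted arrays stood apart in the 3′ over 5′ ratio of the Gapdh control probe sets. It was 4.91 in the mutant and 2.82 in the control, against 0.700 to 0.986 on the other 6 arrays. They did not stand apart in that of the beta-actin control probe sets. There the ratio was 1.65 in the mutant and 1.57 in the control, against 1.42 to 1.94 on the other 6 arrays. The sex-linked genes Xist and Eif2s3y differed within single pairs. Xist read 2247 in the p75-sorted mutant and 21.0 in the p75-sorted control. It read 4368 to 5032 on the other 6 arrays. Eif2s3y was lowest on the OFT control array, at 6.20, while its mutant partner had 151. Outside the OFT pair it read 79.4 to 386. By these genes, mutant and control embryos were not matched in sex in the p75-sorted pair and in the OFT pair. In the LM and UM pairs neither gene showed such a gap, and their matching was not tested further. The p75 receptor gene, Ngfr, read 1422 in the p75-sorted mutant and 1043 in the p75-sorted control, against 47.0 to 149 elsewhere, and 6 of 6 tested neural crest markers were higher in p75-sorted cells than in LM and UM. The 9 cardiac muscle markers summed to 25201 in the OFT mutant and 21742 in the OFT control, against 70.3 to 2782 on the other 6 arrays, and 9 of 9 were higher in OFT than in LM and UM. The effect of these features on the Dlx values was not tested.

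LM against UM asked how the Dlx genes differ between these origins. All 7 genes read higher on both LM arrays than on both UM arrays, and 6 of the 7 passed the test. Dlx1as and Dlx5 differed most clearly. Dlx2 was the gene that did not pass. Of all 13545 genes, 0.738% were called higher and 0.819% lower in LM, and for 16.6% both LM arrays lay above both UM arrays. The median log2 difference was 1.35 over the 7 genes and -0.005 over all genes tested.

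Dlx5 and Dlx6 are the pair needed for lower jaw identity. Dlx5 had intensities of 765 in the LM mutant and 876 in the LM control, against 280.1 in the UM mutant and 225 in the UM control. The LM arrays averaged 820.0 ± 78.5 and the UM arrays 252 ± 39.2 (SD, n = 2 arrays each), a ratio of 3.25. On the log2(intensity + 32) scale, which understates the change of dim genes, Dlx5 was higher in LM by 1.59 ± 0.20 (moderated SE; limma adjusted p = 0.00098). Dlx6 read 132 in the LM mutant and 105 in the LM control, against 8.77 in the UM mutant and 35.3 in the UM control. It was higher by 1.51 ± 0.23 (adjusted p = 0.0042). The UM mutant was below the 40th percentile for Dlx6, and without that array the difference was 1.10 with an adjusted p of 0.063.

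Dlx1 and Dlx2, the pair with the broader expression in the arches, differed less evenly. Dlx1 read 403 in the LM mutant and 679.9 in the LM control, against 236 in the UM mutant and 145 in the UM control. It was higher in LM by 1.35 ± 0.27 (limma adjusted p = 0.027), by 0.70 between the mutant arrays and by 2.01 between the control arrays. Its call held in 7 of 14 alternatives. Without the LM control the difference was 1.04 (adjusted p = 0.19), and without the UM control 0.80 (adjusted p = 0.28). Dlx2 read 271 in the LM mutant and 243 in the LM control, against 158 in the UM mutant and 116 in the UM control. Its difference of 0.78 ± 0.20 (95% interval 0.36 to 1.21) had an adjusted p of 0.086 and was called in 0 of 14 alternative settings.

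Dlx1as, the antisense transcript that overlaps Dlx1, showed the widest gap of the 7. It read 582 in the LM mutant and 464 in the LM control, against 29.0 in the UM mutant and 33.0 in the UM control. The mean in LM was 16.8 times that in UM. Its log2 difference was 3.13 ± 0.21 (limma adjusted p = 7.9e-06), the third largest increase among all 13545 genes, and was called in 14 of 14 alternatives. The 95% intervals of the differences were 2.68 to 3.58 for Dlx1as and 0.76 to 1.95 for Dlx1. They do not overlap, and the difference between the genes was not tested.

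Dlx3 and Dlx4, known for the lower tip of the arches and, Dlx3, also for surface ectoderm, both passed. Dlx3 read 121 in the LM mutant and 122 in the LM control, against 46.4 in the UM mutant and 34.1 in the UM control. It was higher by 1.09 ± 0.20 (limma adjusted p = 0.014). The second Dlx3 probe set read 67.9 in the LM mutant and 64.6 in the LM control, against 32.8 in the UM mutant and 18.1 in the UM control, a difference of 0.79 with an adjusted p of 0.19. The Dlx3 difference was 1.07 (adjusted p = 0.074) without the LM control and 0.94 (adjusted p = 0.16) without the UM control. Dlx4 read 60.3 in the LM mutant and 91.9 in the LM control, against 26.8 in the UM mutant and 14.4 in the UM control, higher by 1.03 ± 0.20 (adjusted p = 0.024). Its call held in 5 of 14 alternatives. The second Dlx4 probe set did not pass the filter, with 29.4 and 17.0 in the LM mutant and LM control, against 4.11 and 1.66 in the UM mutant and UM control. Of 11 surface epithelium markers, 3 were called lower in LM, 0 higher, and 4 differences lay above 0. The 3 calls (Epcam, Krt8 and Cldn6) held in 7, 3 and 5 of 14 alternatives. The intensities of the 11 summed to 1882 in the LM mutant and 1846 in the LM control, against 3182 in the UM mutant and 2682 in the UM control. Their part in the Dlx3 and Dlx4 values was not tested.

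The count of 6 depended on the settings, among them the LM and UM control arrays, the pseudocount and the filter on dim genes. It also fell without either p75-sorted array, though these are not part of the comparison. It was 4 with a pseudocount of 100 and 4 with no filter. It was 3 without the LM control, 3 without the UM control and 1, Dlx1as, with a pseudocount of 1 in place of 32.

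**Figure D1:**
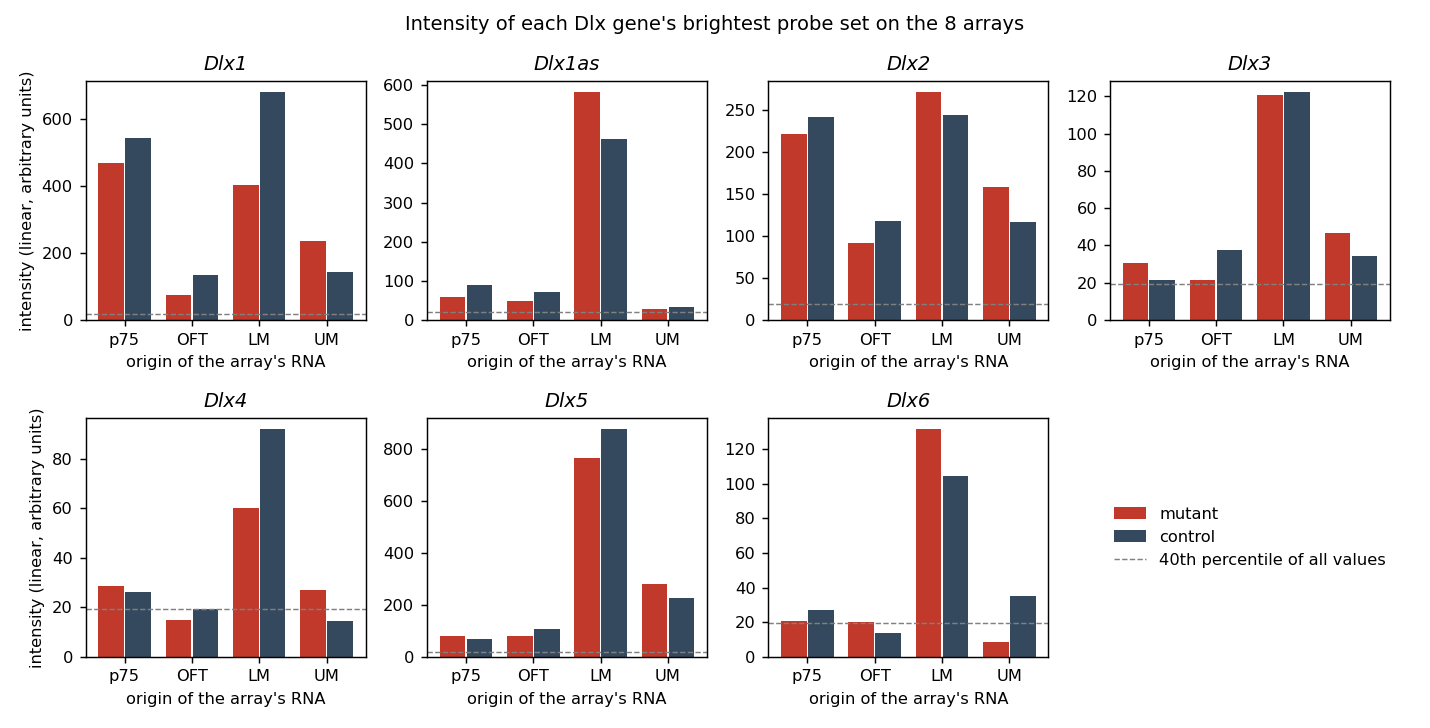
Linear intensity (y axis) of the brightest probe set of each Dlx gene on the 8 arrays, by origin (x axis), with the mutant array left of the control array; each bar is 1 array and the dashed line is the 40th percentile of all values. In all 7 panels both LM bars stand above both UM bars, with the widest gap for Dlx1as.

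The noncoding gene Dlx6os1, known in mouse as a transcript from the Dlx5 and Dlx6 region that acts in the forebrain, moved with the pair. It read 569 in the LM mutant and 446 in the LM control, against 134 in the UM mutant and 97.1 in the UM control, and was higher in LM by 1.87 ± 0.22 (limma adjusted p = 0.00057). Dlx6os2 did not pass the filter. It read 19.4 in the LM mutant and 12.6 in the LM control, against 2.94 in the UM mutant and 1.40 in the UM control.

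Of 13 lower jaw genes known to lie downstream of Dlx5 and Dlx6, 11 were tested: 7 were called higher in LM, 0 lower, and 4 did not pass, with a median log2 difference of 0.96. Hand2, which encodes a bHLH factor of lower jaw and heart, read 936 in the LM mutant and 1119 in the LM control, against 33.0 in the UM mutant and 11.8 in the UM control. Its difference was 4.31 ± 0.22 (limma adjusted p = 1.9e-06). Pitx1, a transcription factor of the lower jaw and hindlimb, was higher by 2.71 ± 0.18, the transcriptional co-regulator Cited1 by 2.04 ± 0.20 and the homeobox gene Gbx2 by 1.40 ± 0.19. Barx1, Plagl1 and Gsc, further transcription factors, were higher by 1.07, 0.96 and 0.89, and their calls held in 5, 4 and 6 of 14 alternatives. Hand1, Unc5c, Rgs5 and Alx4 differed by 0.95, 0.64, 0.48 and 0.08 without passing. With a pseudocount of 1 the list's count was 3, and it was 4 without the LM control, without the UM control, without either OFT array or with no filter on dim genes. Markers of other cell types also differed between LM and UM. Of 9 cardiac muscle markers, 3 were higher in LM and 0 lower: Actc1, the cardiac alpha actin, read 875 in the LM mutant and 552 in the LM control, against 77.0 in the UM mutant and 31.8 in the UM control, while the atrial myosin light chain gene Myl7 read 2.20 and 0.80 in the LM mutant and LM control, against 2.05 and 0.89 in the UM mutant and UM control. The other calls were Tnnt2 and Tnni1, and Myl2, Myl4, Myh6, Myh7, Myl7 and Nkx2-5 did not pass. The 9 summed to 1092 in the LM mutant and 705 in the LM control, against 170 in the UM mutant and 70.3 in the UM control. Of 9 neuron markers, 4 were lower in LM and 0 higher, with sums of 1160 in the LM mutant and 628 in the LM control, against 1246 in the UM mutant and 2138 in the UM control. Which cells carried these markers, and their part in the jaw genes, Hand2 included, was not tested.

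The 3 listed upper jaw genes that Dlx5 and Dlx6 are known to hold down ran the other way. Foxl2, a forkhead factor, read 63.1 in the LM mutant and 70.9 in the LM control, against 294 in the UM mutant and 210.0 in the UM control. It was lower by 1.51 ± 0.20 (a log2 difference of -1.51; limma adjusted p = 0.0019). Pou3f3 and Irx5 differed by -0.80 and -0.74 and did not pass, at adjusted p of 0.086 and 0.10. With a pseudocount of 1, or with the mean of all probe sets of a gene, 0 of the 3 passed.

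Upstream, the endothelin genes showed no call between LM and UM. Of 9 listed, 8 were tested, 0 passed, and the median difference was 0.11. Edn1, the ligand itself, read 23.0 in the LM mutant and 23.9 in the LM control, against 1.19 in the UM mutant and 7.79 in the UM control, a difference of 0.61 ± 0.21 with an adjusted p of 0.32. Among 7 other ligands, Shh was called higher by 0.99 and Bmp7 lower, at -0.98, calls that held in 8 and 4 of 14 alternatives. Of 11 other transcription factors of facial mesenchyme tested, 0 were higher and 6 lower, with a median of -0.90. They were led by Alx1, a frontonasal homeobox gene, at -3.13 ± 0.17, and by Tfap2b, an AP-2 factor, at -1.72 ± 0.25. With a pseudocount of 1 the count was 1, with no filter on dim genes 3, without the LM control 3 and without the UM mutant 2.

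**Figure D2:**
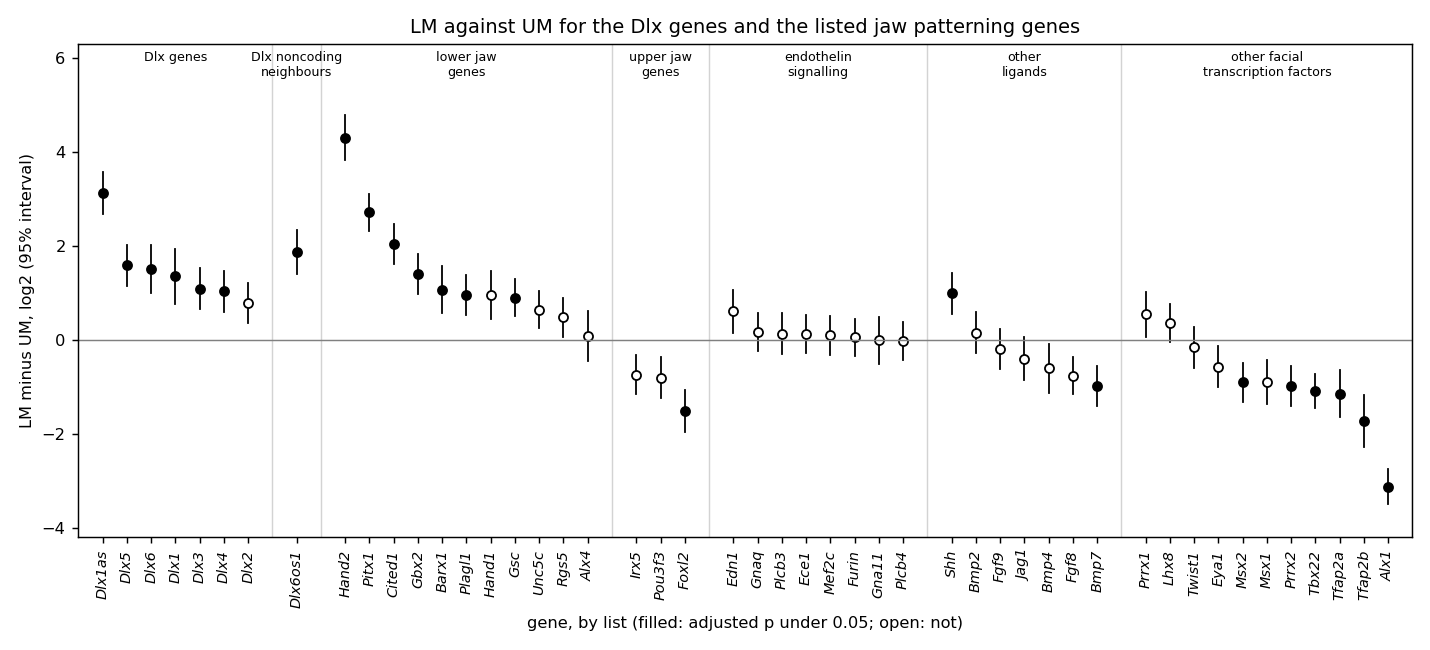
LM minus UM difference in log2(intensity + 32) (y axis) of each tested gene (x axis), grouped as Dlx genes, noncoding neighbours, lower jaw, upper jaw, endothelin, other ligands and other facial transcription factors; points are differences, lines 95% intervals, and filled points passed the test. The Dlx genes and 11 of 11 lower jaw genes lie above 0 and the 3 upper jaw genes below it.

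OFT was compared with the mean of LM and UM. All 7 Dlx genes were lower in OFT and passed the test, against 3.88% of all genes called lower and 11.3% called higher. The median difference was -0.85 over the 7 genes and 0.01 over all genes. This comparison shares its LM and UM arrays with the others. Beside the 9 cardiac muscle markers, 5 of 6 endothelium markers, 5 of 9 neuron markers and 4 of 6 neural crest markers were higher in OFT, and 1 of 11 surface epithelium markers was higher and 4 were lower. Their sums in the OFT mutant and OFT control were 1322 and 1549.9 for endothelium, 3417 and 5237 for neurons, 2345 and 2755 for neural crest and 2147 and 2140.3 for surface epithelium. On the LM and UM arrays they lay at 732 to 842, 628 to 2138, 977 to 1099 and 1846 to 3182 in the same order. The part of these cells in the Dlx values was not tested. Dlx5 read 79.3 in the OFT mutant and 106 in the OFT control, below all 4 LM and UM arrays, and differed by -1.98 ± 0.17 (limma adjusted p = 8.0e-06). Dlx1 read 76.0 in the OFT mutant and 136 in the OFT control, also below all 4, and differed by -1.37 ± 0.23 (adjusted p = 0.0018). Dlx2 read 91.4 in the OFT mutant and 118 in the OFT control, and its difference was -0.69 ± 0.17 (adjusted p = 0.016). The OFT control was above the UM control for Dlx2, which read 116.

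Dlx1as read 49.4 in the OFT mutant and 72.6 in the OFT control, below both LM arrays and above both UM arrays. Its difference of -1.01 ± 0.18 (limma adjusted p = 0.0020) is therefore a difference from LM. Dlx3 read 21.5 in the OFT mutant and 37.6 in the OFT control, Dlx4 14.9 and 19.3, and Dlx6 20.4 and 13.8. For these 3 genes the OFT values overlapped those of UM, and their differences were -0.78 ± 0.17, -0.61 ± 0.18 and -0.85 ± 0.20 (adjusted p of 0.0085, 0.036 and 0.013). The Dlx4 call held in 4 of 14 alternatives. Without the OFT mutant 2 of the 7 genes passed, without the OFT control 4, and with a pseudocount of 1 it was 1, Dlx5.

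The listed partners of the Dlx genes did not move as a block in OFT. Of the 11 lower jaw genes, 4 were higher and 4 lower: Hand2 was higher by 2.27 and Pitx1 differed by -3.45. Hand2 read 1030 in the OFT mutant and 1195 in the OFT control. These values overlapped those of LM, at 936 in the mutant and 1119 in the control. The Hand2 difference is therefore a difference from UM, at 33.0 in the mutant and 11.8 in the control. Of 8 endothelin genes, 5 were higher, among them Edn1 by 1.68 and Mef2c, a transcription factor of heart and arches, by 1.18. The 3 upper jaw genes were all lower, and so were 10 of 11 other facial transcription factors, with a median of -1.63. With a pseudocount of 1, or without either OFT array, 5 lower jaw genes were called in place of 8, and without the OFT control 3 endothelin genes.

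The p75-sorted cells were compared with the mean of LM and UM. Here the Dlx genes divided: 1, Dlx1, was higher, 4 were lower, and Dlx2 and Dlx4 did not pass. Of all genes 29.4% were called higher and 18.7% lower, so a call is common in this comparison. Only these arrays are described as sorted and pooled, so origin, sorting and any batch cannot be told apart.

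Dlx1 read 470.5 in the p75-sorted mutant and 543 in the p75-sorted control, within the range of the LM arrays and above both UM arrays. It was higher by 0.63 ± 0.23 (95% interval 0.12 to 1.14; limma adjusted p = 0.044), a call that held in 7 of 14 alternatives. Dlx2 read 221 in the p75-sorted mutant and 242 in the p75-sorted control, between the LM and the UM arrays. Its difference was 0.26 ± 0.17 (95% interval -0.11 to 0.62; adjusted p = 0.23). Dlx5 stood at the other end, with 81.9 in the p75-sorted mutant and 66.7 in the p75-sorted control, below all LM and UM arrays, and a difference of -2.21 ± 0.17 (adjusted p = 1.9e-06). The 95% intervals of Dlx1 and Dlx5 lie on opposite sides of 0, and the difference between the genes was not tested. Dlx6os1 read 26.2 in the p75-sorted mutant and 33.1 in the p75-sorted control, a difference of -2.18 ± 0.19 (adjusted p = 4.2e-06).

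Dlx1as read 58.7 in the p75-sorted mutant and 89.4 in the p75-sorted control, above both UM arrays and below both LM arrays, with a difference of -0.83 ± 0.18 (limma adjusted p = 0.0023). Dlx3 read 30.8 in the p75-sorted mutant and 21.3 in the p75-sorted control, below all 4 LM and UM arrays, and differed by -0.86 ± 0.17 (adjusted p = 0.0014). Beside it, 11 of 11 surface epithelium markers were lower in p75-sorted cells, and their intensities summed to 555 in the mutant and 678 in the control, against 1846 to 3182 on the LM and UM arrays. The part of epithelial cells in the Dlx3 value was not tested. Dlx6 read 20.5 in the p75-sorted mutant and 27.1 in the p75-sorted control, within the UM values, and differed by -0.67 ± 0.20 (adjusted p = 0.016). Dlx4 read 28.4 in the p75-sorted mutant and 26.2 in the p75-sorted control and differed by -0.33 ± 0.18 (95% interval -0.72 to 0.05; adjusted p = 0.14). Without the p75-sorted mutant 2 of the 7 genes passed, without the p75-sorted control 3, and with a pseudocount of 1 there were 3.

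Of 6 forebrain interneuron genes tested, 3 were higher in p75-sorted cells. They were Gad1, which makes GABA, by 1.40, Slc32a1, which loads it into vesicles, by 1.19, and Gsx2 by 0.59. Gsx2 was dim, at 23.2 in the p75-sorted mutant and 20.1 in the p75-sorted control, and its call held in 11 of 14 alternatives. The second Gad1 probe set showed no rise, with 3.23 and 3.73 on these arrays, against 3.25 to 26.5 on the LM and UM arrays. The other Slc32a1 probe sets were dim. The brightest of them read 19.3 in the p75-sorted mutant and 11.3 in the p75-sorted control, against 1.98 to 14.6 on the LM and UM arrays. Lhx6 and Sp8 were lower, at -1.61 and -0.78. Of 9 neuron markers, 8 were higher in the same comparison, and their part in these values was not tested. Of 8 endothelin genes 4 were higher, led by Mef2c at 2.25. Of 11 lower jaw genes 2, Rgs5 at 1.69 and Unc5c at 0.44, were higher and 4 were lower, led by Pitx1 at -3.14. The Unc5c call held in 5 of 14 alternatives. Its second probe set went the other way, with 63.6 in the p75-sorted mutant and 89.4 in the p75-sorted control. That probe set read 155 to 226 on the LM and UM arrays. Of the 3 upper jaw genes 2 were higher, Irx5 by 0.76 and Foxl2 by 0.70, a count that was 1 without the p75-sorted mutant or with the mean of all probe sets. The Foxl2 values on the p75-sorted arrays lay above both LM arrays and overlapped those of UM. The Foxl2 rise is therefore a difference from LM. The second Foxl2 probe set was lower, with 7.38 in the p75-sorted mutant and 3.48 in the p75-sorted control. It read 17.5 to 45.9 on the LM and UM arrays. Of 11 other facial transcription factors 1 was higher and 8 were lower.

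**Figure D3:**
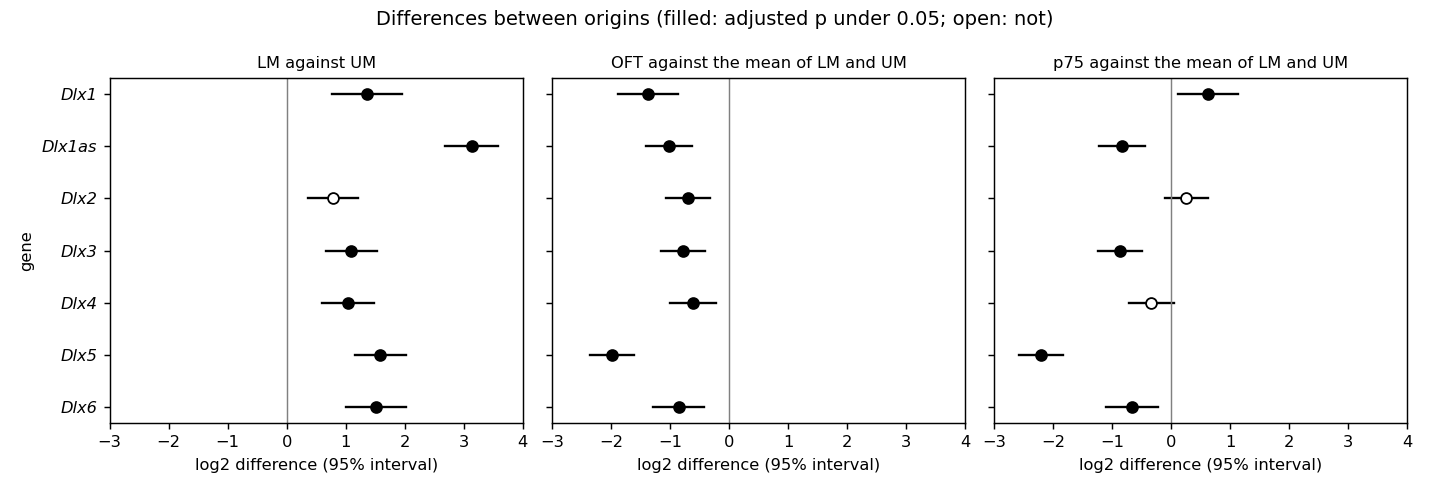
Difference in log2(intensity + 32) (x axis) of each Dlx gene (y axis) in 3 comparisons of origins; points are differences, lines 95% intervals, and filled points passed the test at an adjusted p under 0.05. All 7 genes lie to the right of 0 for LM against UM and to the left for OFT, and for p75-sorted cells Dlx1 lies to the right while Dlx5 lies farthest to the left.

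Over the 4 origins, Dlx1 was bright in both p75-sorted cells and LM, with array values that overlapped, and had its lowest arrays in OFT. Dlx2 had its highest arrays in LM, followed by p75-sorted cells, with UM and OFT overlapping. Dlx5 fell in the order LM, UM, OFT and p75-sorted cells, where the values of the last pair of origins overlapped. Dlx1as, Dlx3, Dlx4 and Dlx6 were high in LM alone, with no array of another origin reaching either LM array. The same held for Dlx5 and, narrowly, for Dlx2 (243 in the LM control and 242 in the p75-sorted control). The share of all genes with such a gap was not counted. For Dlx4 and Dlx6 the UM arrays overlapped those of OFT and of p75-sorted cells, and both p75-sorted arrays lay above both OFT arrays, for Dlx6 narrowly (20.5 in the p75-sorted mutant and 20.4 in the OFT mutant). For Dlx1as the UM arrays lay below OFT and p75-sorted cells, which overlapped.

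Likeness between genes was measured as the root mean square difference of log2(intensity + 32) over the 8 arrays, after each gene was centred on its own mean. Among the 7 genes the closest were Dlx3 and Dlx4, at 0.25, and the farthest Dlx1 and Dlx5, at 1.19. The distance was 0.49 for the neighbours Dlx1 and Dlx2, 0.75 for Dlx5 and Dlx6, and 0.99 for Dlx1 and the overlapping Dlx1as. Of all genes tested, Dlx6os1 was closest to Dlx5, at 0.20, where the own spread of Dlx5 was 1.20, followed by Mab21l1 at 0.46 and Pcdh10 at 0.54. For Dlx1, with a spread of 0.92, the closest were Nr2f1, Shisa3 and Hmx1, at 0.38 to 0.42. For Dlx1as, with a spread of 1.21, they were Nr5a2, 3110099E03Rik and Gpr50, at 0.39 to 0.43.

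Dlx2, Dlx3, Dlx4 and Dlx6 had smaller spreads, of 0.47, 0.58, 0.47 and 0.69 in that order. The closest genes of Dlx2 were AW551984, Zbtb16 and Sim2, at 0.18 to 0.20. Those of Dlx3 were Gpr27, Cbln4 and Gsc, at 0.21 to 0.24. Lmo4, Gbx2 and Mrln were closest to Dlx4, at 0.18 to 0.19. Dlx4os, Gbx2 and Capn6 were closest to Dlx6, at 0.27 to 0.35.

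Mutant against control asked whether the Dlx genes change in FAK mutant embryos. None of the 7 passed the test, and limma called 0% of all genes, with 410 at an unadjusted p under 0.05 and a smallest adjusted p of 0.75. No Dlx gene had the same sign in all 4 pairs, as 9.18% of all genes had. The mean differences ran between -0.24 ± 0.19 for Dlx1 (95% interval -0.65 to 0.18) and 0.02 ± 0.14 for Dlx2 (-0.28 to 0.32), over 4 pairs. The p that misses the threshold does not show that mutant and control embryos are alike.

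Single pairs differed by more, with no test possible for 1 array of each genotype. Dlx1 differed by -0.19 in the p75-sorted pair, -0.64 in OFT, -0.71 in LM and 0.60 in UM. Dlx6 differed by -0.17 in the p75-sorted pair, 0.19 in OFT, 0.26 in LM and -0.72 in UM. The SD of such differences over all genes was 0.31, 0.28, 0.33 and 0.28 in the same order of origins. In the OFT pair 6 of the 7 genes lay lower in the mutant, and in the UM pair 5 of the 7 lay higher. The median over all genes leaned the same way, at -0.05 in the OFT pair and 0.04 in the UM pair. The share of all genes with each sign was not counted. Dlx5 ranged over the pairs between -0.31 in OFT and 0.28 in UM, Dlx1as between -0.42 in p75-sorted cells and 0.31 in LM, and Dlx4 between -0.43 in LM and 0.34 in UM. Dlx2 and Dlx3 stayed between -0.38 and 0.36 in every pair. Of the partner genes listed, none was called, and the lower jaw genes had a median difference of 0.01.

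**Figure D4:**
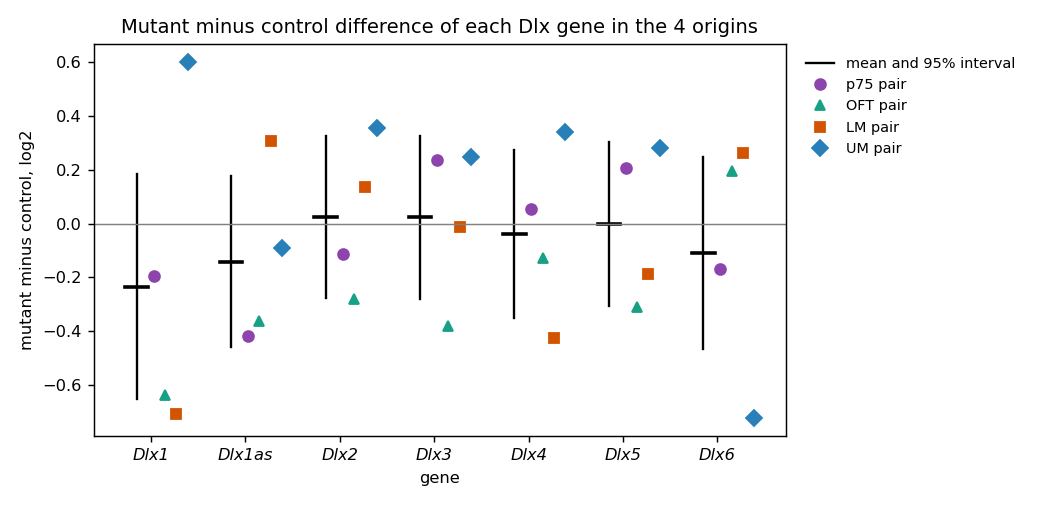
Mutant minus control difference in log2(intensity + 32) (y axis) of each Dlx gene (x axis); coloured points are the 4 origin pairs, and the black bar and line are limma's mean and its 95% interval. Each interval includes 0, and the pairs of every gene lie on both sides of 0.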

How the data were processed

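RNA of 8 arrays was measured with Affymetrix mouse arrays. The values the authors deposited are intensities on a linear scale, 1 for each of 45101 probe sets; which software made them is not stated in the sources used here, and their trimmed mean of 150.0 on every array was read from the values. The arrays were not scaled further. Names came from the platform annotation, with 34945 probe sets of 1 gene, 932 of several, 9160 of none and 64 controls; 0 symbols changed when updated through RefSeq.

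Intensities became log2(intensity + 32). Genes (brightest probe set) above the 40th percentile on at least 2 arrays were tested with limma 3.58.1 in R 4.3.3 (lmFit, eBayes) in 1 model of origin and genotype (residual degrees of freedom 3, prior 9.06), and p-values were adjusted by Benjamini-Hochberg over 13545 genes at a threshold of 0.05. Mutant and control arrays of an origin served as its 2 arrays. Values after ± are moderated SE unless SD is named. The scripts were tested on simulated data. The number of arrays limits the precision.

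The genes and the 14 lists (114 genes, 12 of them not analysed here) were chosen with earlier results of these data known. Any listed gene could be named, and the 3 genes most like each Dlx gene. Alternatives were pseudocounts of 1 and 100, no filter, the mean of all probe sets, quantile normalization, an intensity trend in eBayes, leaving out each array or pair, and no origin term.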

Additional observations from a re-analysis of the deposited data

How the results depend on the processing

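Across 431 recomputed differences of the Dlx genes, 348 kept their direction and side of the threshold, 56 lost the call and 1 gained it. The other 26 were differences of Dlx2, Dlx3, Dlx4, Dlx5 and Dlx6 between mutant and control, none of them called, that changed sign. All differences between origins kept theirs. With a pseudocount of 1, 1 Dlx gene passed for LM against UM (6 in the analysis as reported), 1 for OFT (7) and 3 for p75-sorted cells (5), and over all genes 64 (211) and 999 (2060) passed for LM against UM and for OFT. With a pseudocount of 100, 138 genes passed for LM against UM. The cause was not tested. Leaving out 1 array at a time, 3 to 6 Dlx genes passed for LM against UM, 2 to 7 for OFT and 2 to 5 for p75-sorted cells, and over all genes 110 to 223, 624 to 2145 and 3654 to 6287. Without the UM control, 3 Dlx genes passed for p75-sorted cells. Between mutant and control 0 Dlx genes passed in any setting, with a lowest adjusted p of 0.83, and 0 to 1 of all genes with an array or pair left out. Dim probe sets are limited most: Dlx4 and Dlx6 lay below the 40th percentile on 3 and 2 arrays.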

Other observations

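Dlx4os, a noncoding gene that overlaps Dlx4 on chromosome 11, was in none of the lists and was chosen after its values were seen among the genes most like Dlx6. It read 52.2 in the LM mutant and 91.6 in the LM control, against 1.91 in the UM mutant and 9.95 in the UM control. Its log2 difference was 1.44 ± 0.19 (limma adjusted p = 0.0017). In OFT it read 1.77 in the mutant and 0.59 in the control, and it differed from the mean of LM and UM by -0.90 ± 0.17 (adjusted p = 0.0030). Its p75-sorted arrays read 14.4 in the mutant and 17.0 in the control, a difference of -0.38 ± 0.17 (adjusted p = 0.080). Mutant and control differed by -0.22 ± 0.14. Which strand its probe set and those of Dlx4 read was not tested.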
